A study of Mus musculus with 12 samples.

Results

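The results concern the row of Cd72 (ENSMUSG00000028459), which is 1 of 57010 rows in the deposited count tables and was followed through all 12 libraries. It was chosen because earlier results of these data showed it lower in cells given vesicles of LPS-treated donors than in controls, and named it among the rows of smallest p for vesicles of IL-10-treated donors. Its values in those comparisons are therefore a description, given without a test. BV2 cells, an immortalised mouse microglial line, received extracellular vesicles (EVs, membrane particles that cells release) from other BV2 cultures for 24 h before RNA-seq. The 4 groups of 3 libraries are named by the donor cells: control_EV had vesicles of donors given no agent in the labels, LPS_EV of donors exposed to LPS, the bacterial endotoxin sensed by Toll-like receptor signalling, TGFB_EV of donors given the cytokine TGF-B, and IL10_EV of donors given the cytokine IL-10. For TGFB_EV and IL10_EV the donors are known from the sample titles alone. Every group, the controls included, received vesicles, and no group without vesicles is among the samples analysed here. Agent carried over with the vesicles cannot be told apart from the vesicles themselves. Whether replicates came from separate cultures is not in the labels. The p-values below therefore cover the spread among libraries, and that spread may be technical. BV2 is a cell line, so all groups are a model of 1 immortalised culture.

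CD72 is a transmembrane protein with a C-type lectin-like domain outside the cell and an immunoreceptor tyrosine-based inhibitory motif in its cytoplasmic tail. When its ligand semaphorin 4D (Sema4d, CD100) or other ligands act on it, Src family kinases and the phosphatase encoded by Ptpn6 set how strongly the motif dampens signals from activating receptors. It is best known as a coreceptor of B cells, and macrophages and microglia can express it too.

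Cd72 lies on the minus strand of chromosome 4 at 43446462-43454628 in GENCODE M21 (GRCm38), with 3422 bases of exon in 7 blocks. Labels of many rows in these tables are displaced along their chromosomes: an estimate by the fit described with the processing found that only 17.6% of rows of at least 5 CPM (counts scaled to a common library size) met the gene of their label. The Cd72 row lies in a stretch of 1226 rows on chromosome 4, with starts between 3.10 and 99.0 Mb. Its estimated displacement was 100 bp, and displacements from -300 to 300 bp, no displacement among them, scored within 5 of the best. The best displacement more than 10 kb away scored 91.0 lower. At 100 bp, 80.4% of the exon bases of the Cd72 row fall on Cd72 exons, and at 300 bp in either direction 56.8% do, so the row is read here as Cd72.

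The start of the gene is shown because the levels of factors known to act on it are given later. The RefSeq promoter of Cd72 (GRCm38.p6, chr4:43454577-43454876, minus strand, 300 bases that end 50 bases after the start) reads 5′ to 3′, with the match to a motif in capitals:

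Cd72 promoter: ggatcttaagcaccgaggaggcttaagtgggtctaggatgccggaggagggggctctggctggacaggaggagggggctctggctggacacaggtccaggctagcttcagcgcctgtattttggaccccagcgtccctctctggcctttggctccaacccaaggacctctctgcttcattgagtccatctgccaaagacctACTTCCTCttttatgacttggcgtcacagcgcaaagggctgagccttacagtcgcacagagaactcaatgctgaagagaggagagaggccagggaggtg

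The motif searched was GAGGAAGT, the form that the factor PU.1 (gene Spi1) prefers, on both strands. It was chosen after the sequence had been read. The promoter holds 1 match, on the opposite strand (ACTTCCTC), 49 to 42 bases before the start. Of 32851 promoters of the same length, 3.20% hold this motif. A match describes these letters and is no evidence of binding.

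Library totals lay between 10497757 and 13647007 counts, and the Cd72 row held 1298 to 2465 counts per library. A pair of libraries stood apart from their own groups. The distance between replicates was measured by chi-square on their counts, divided by its degrees of freedom. TGFB_EV replicate 3 lay at 10.01 from replicate 1 and 16.9 from replicate 2, which were 4.41 apart. For IL10_EV replicate 2 these values were 18.7 and 24.8, against 5.92 between replicates 1 and 3. Pairs within control_EV and LPS_EV gave 3.58 to 5.86. By root mean square difference of log2 CPM, TGFB_EV replicate 3 was nearer to the mean of control_EV than to that of its own other replicates (0.192 against 0.281), and IL10_EV replicate 2 nearer to LPS_EV (0.257 against 0.338). This measure did not single them out. It takes the own-group mean over 2 libraries and that of another group over 3, which by itself makes the own-group distance larger. For IL10_EV replicates 1 and 3 the own-group mean also holds replicate 2. Control_EV replicates 2 and 3, LPS_EV replicate 2 and IL10_EV replicates 1 and 3 were also nearer to another group. IL10_EV replicate 1 lay at 0.194 from TGFB_EV against 0.229 from its own group, and control_EV replicate 2 at 0.203 from IL10_EV against 0.209. From the chi-square distances, the level of Cd72 and the medians and calls of the gene lists are also given without TGFB_EV replicate 3 or IL10_EV replicate 2.

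Cd72 was highest in control_EV and lower on average in every other group. On the scale of TMM-scaled CPM it lay at 185, 192 and 170.1 in control_EV replicates 1, 2 and 3. In LPS_EV the 3 replicates had 157, 113 and 135 CPM, all under the lowest control. In IL10_EV they had 149.7, 152 and 131 CPM, again all under the lowest control. In TGFB_EV replicates 1 and 2 had 143 and 131 CPM, below the controls, while replicate 3 had 197 CPM, above all of them. The ranges of LPS_EV, TGFB_EV and IL10_EV overlapped with each other, and that of TGFB_EV overlapped with control_EV.

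**Figure D1:**
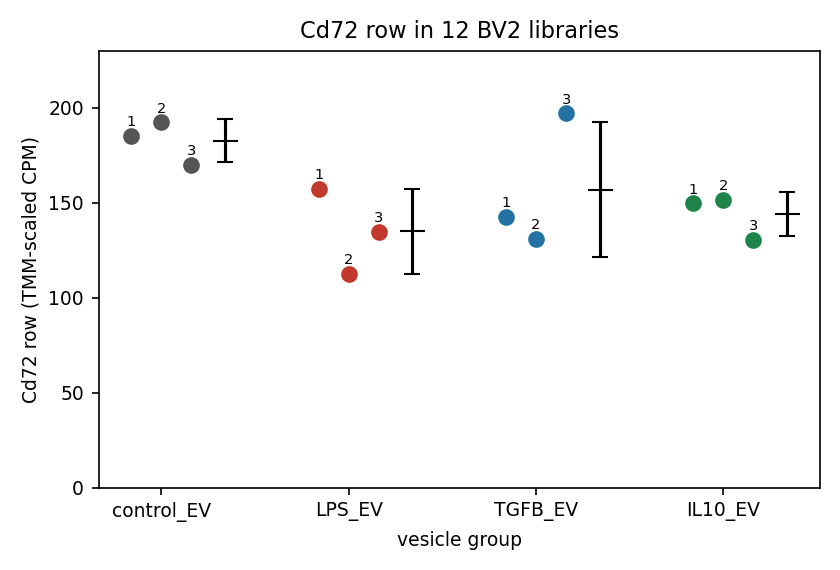
Level of the Cd72 row in each library (points, numbered by replicate; TMM-scaled CPM) for the 4 vesicle groups, with the group mean and SD (n = 3) as bars to the right. The LPS_EV and IL10_EV points lie below the lowest control, 170.1 CPM, and TGFB_EV replicate 3, at 197 CPM, lies above the highest.

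Ordered by group mean, Cd72 had 183 ± 11.3 CPM in control_EV, 157 ± 35.4 in TGFB_EV, 144 ± 11.6 in IL10_EV and 135 ± 22.3 in LPS_EV (SD, n = 3). Relative to control_EV these are 86.0%, 78.9% and 73.9%. Neighbours in this order overlapped in their ranges at each step, so that no step from a group to the next exceeded the spread. Without replicate 3, TGFB_EV averaged 137 ± 8.22 CPM (SD, n = 2), or 74.9% of control_EV, and then lay between IL10_EV and LPS_EV. Without replicate 2, IL10_EV averaged 140.2 ± 13.5 CPM (SD, n = 2), or 76.8% of control_EV.

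Its replicates varied beyond counting error and more than most rows of similar level. The SD, as a share of the group mean, was 6.21% for control_EV, 16.6% for LPS_EV, 22.6% for TGFB_EV and 8.07% for IL10_EV, where counting error alone gives 2.01% to 2.78% per library. On the log2 scale the SD within groups, pooled over the 4 groups, was 0.21 for Cd72. Among 568 rows of similar mean level (124 to 193 CPM), the median of that SD was 0.09, and 91.7% had a smaller one. In LPS_EV 98.2% of those rows varied less than Cd72, in TGFB_EV 96.0%, in control_EV 73.1% and in IL10_EV 56.3%. The mean level of 155 CPM over all libraries exceeded that of 83.4% of the 7499 rows of at least 5 CPM.

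The design asks how gene expression of resting microglia differs after vesicles of LPS-treated and of control donors. In the edgeR fit of these 6 libraries Cd72 had a log2 difference of -0.43 (SE 0.08), a level 0.740 times that of control_EV. The median of all 10523 rows tested was 0.00. The SE here and below is derived from the edgeR F statistic, whose variance is moderated across rows. It is not the SE of the row's own replicates, whose log2 SD was 0.0905 in control_EV and 0.241 in LPS_EV (n = 3). With each library left out in turn the difference lay between -0.56, without LPS_EV replicate 1, and -0.32, without LPS_EV replicate 2, the library in which Cd72 was lowest. As background, edgeR with Benjamini-Hochberg adjustment called 86 rows (0.817%), 57 of them higher (0.542%) and 29 lower (0.276%). All 3 LPS_EV values lay below all 3 control values in 8.21% of rows, and the groups did not overlap in either direction in 16.2%. The balance of directions was not stable: DESeq2 called 39 rows higher and 90 lower (3.71% of 2429 rows to which it gave an adjusted p). As it judged fewer rows than edgeR, the tool and the set of rows cannot be told apart. Without a filter edgeR itself called 93 rows higher and 72 lower. The row was chosen on this contrast, so nothing is read from its place among them.

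IL10_EV was compared with the same controls. Cd72 had a log2 difference of -0.34 (SE 0.08), a level 0.788 times that of control_EV, and the difference lay between -0.39 and -0.28 with each library left out. Without IL10_EV replicate 2, the library that stood apart, it was -0.38 (SE 0.08), so the difference was as large without it. The background was 0 of 10613 rows called by edgeR (0%), with 334 rows at an unadjusted p under 0.05 and 1 row called by DESeq2. In 4.31% of rows all 3 IL10_EV values lay below all 3 control values, and in 8.81% the groups did not overlap in either direction. This contrast too was known when the row was chosen.

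TGFB_EV was the comparison that did not enter the choice, but its control libraries did. With all 6 libraries Cd72 did not pass: the log2 difference was -0.22 (SE 0.12), with an adjusted p of 0.792 in edgeR, and 2 of 3 TGFB_EV libraries lay below all controls. Only 4 of 10524 rows were called (0.038%), all lower, with 656 rows at an unadjusted p under 0.05. All 3 TGFB_EV values lay below all 3 control values in 5.5% of rows, and the groups did not overlap in 10.9%. Without TGFB_EV replicate 3, the library above all controls, the log2 difference was -0.42 (SE 0.07). That value is a description: the row was chosen for its level against these same 3 controls, and a p on it would be no independent support. In that fit 419 of 10768 rows were called (3.89%), 312 of them lower (2.9%). With any other library left out the difference of Cd72 lay between -0.27 and -0.10.

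**Figure D2:**
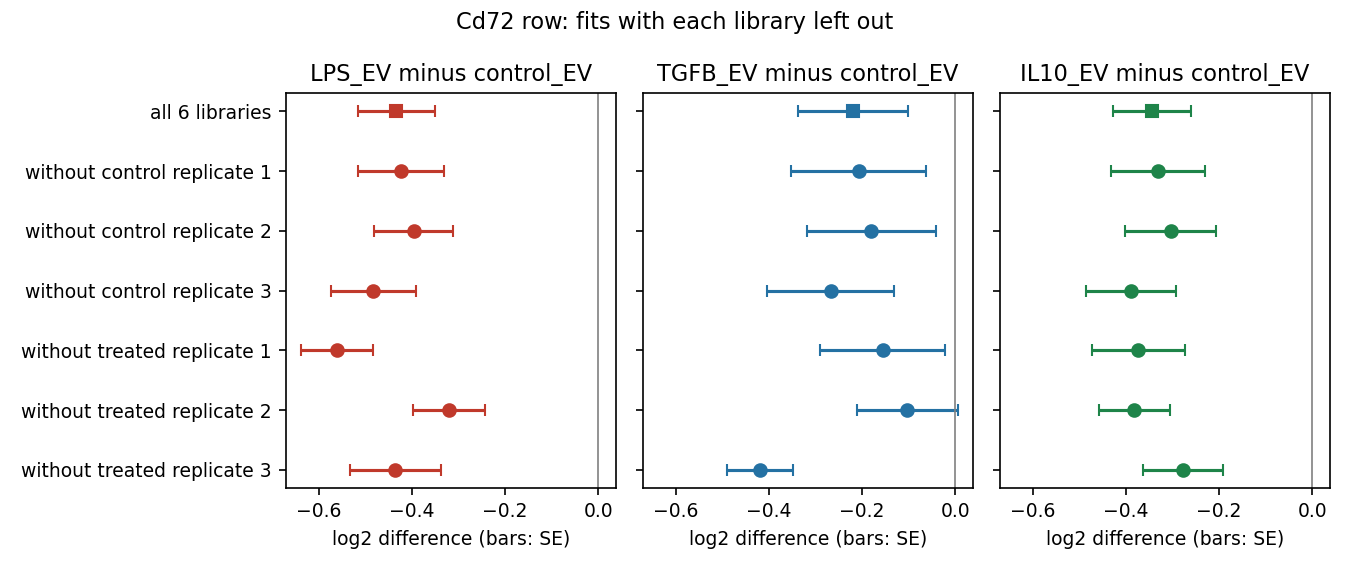
Log2 difference of the Cd72 row from control_EV (horizontal axis; bars are the SE) in the edgeR fit of all 6 libraries (square) and with each library left out (circles), for LPS_EV, TGFB_EV and IL10_EV. All values lie below 0. The largest shift is that of TGFB_EV from -0.22 to -0.42 without treated replicate 3. The SE is derived from the edgeR F statistic and is not that of the row's own replicates.

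Rows on either side of Cd72 on chromosome 4 were examined because their levels bear on its label. Per kilobase of exon, Cd72 had a mean of 45.2 CPM. On the same scale its neighbours Tesk1 (a kinase of actin regulation), Ccdc107 and Rusc2 had 24.7, 55.4 and 95.7 CPM. Sit1, an adaptor of lymphocytes, had 0.00544 CPM per kilobase, which is 1 count in all 12 libraries. Fam166b, Atp8b5 and Unc13b had 0.134, 0.199 and 0.950, and Arhgef39, Car9 (a carbonic anhydrase) and the antisense row Gm12454 had 3.52, 2.63 and 2.59. Levels beside Cd72 thus ranged from 1 count to above that of Cd72, and each protein-coding row among them met its own gene. All lie in the same stretch as Cd72, and its displacement was fitted from row levels, so this is no independent check of the label.

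**Figure D3:**
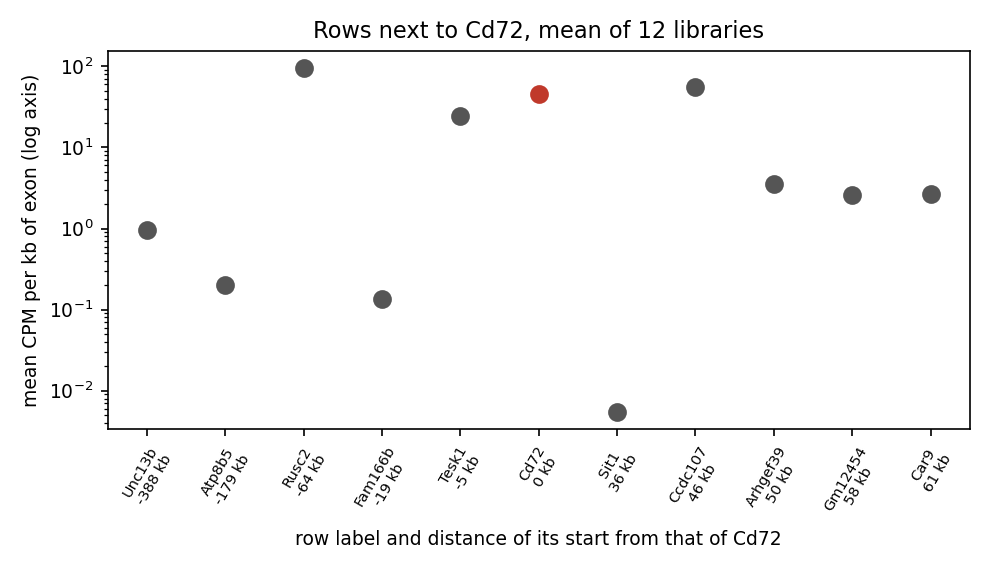
Mean level over 12 libraries, in CPM per kb of exon on a log axis, of the 5 labelled rows with counts on either side of Cd72 (red), in chromosome order with the distance of each start from that of Cd72. Sit1, at 0.00544, is the lowest point, and Cd72 lies at 45.2.

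Tesk1 needs separate mention, since it runs on the opposite strand and its exons share 1423 bases with those of Cd72, 41.6% of the exon bases of Cd72. The library kits do not mark strand, so reads in that stretch cannot be told apart. The row labelled Tesk1 had 115 ± 3.75 CPM in control_EV and 97.2 ± 4.09 in LPS_EV (SD, n = 3). It had 118 ± 5.39 CPM in TGFB_EV and 109 ± 12.1 in IL10_EV. Its log2 difference in LPS_EV was -0.24 (SE 0.06, edgeR adjusted p = 0.0804), short of the threshold, and DESeq2 gave an adjusted p of 0.0233. In TGFB_EV and IL10_EV the differences were 0.03 and -0.09, with edgeR adjusted p of 0.967 and 0.9996. How far the values of Cd72 and Tesk1 in LPS_EV share reads was not tested. Of the 10 neighbours 8 were tested, and 0 were called by edgeR in any of the 3 comparisons, where 0.817%, 0.038% and 0% of all rows were called in LPS_EV, TGFB_EV and IL10_EV.

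The rows whose pattern was most like that of Cd72 were found by the root mean square difference between log2 CPM values, each row centred on its own mean, over the 12 libraries. A flat row would score 0.239, the spread of Cd72 itself, and 20.6% of 7497 rows of at least 5 CPM scored below that. The nearest row with a gene name was labelled Haus4 and met Slc7a8, an amino acid transporter, with 0.102. Next were the rows labelled Yars (met Tmem54) with 0.105, Raph1, which met its own gene, a regulator of actin and cell shape, with 0.12, and Oxld1 (met Actg1, cytoplasmic gamma-actin) with 0.123. The row labelled Garnl3, which met Fam129b, Slc2a8, Lrsam1 and Garnl3, had 0.125, and Mrc1, the macrophage mannose receptor, which met its own gene, had 0.13.

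These 6 rows shared the course of Cd72 over the libraries, as the choice of near rows implies. Mrc1 had 813 ± 29.8 CPM in control_EV and 661 ± 75.9 in LPS_EV (SD, n = 3). It had 751 ± 95.3 CPM in TGFB_EV and 744 ± 70.5 in IL10_EV. TGFB_EV replicate 3 had 861 CPM of Mrc1, and replicates 1 and 2 averaged 696. Raph1 had 73.7 ± 4.58 CPM in control_EV and 62.3 ± 5.93 in LPS_EV, and in TGFB_EV 76.5 in replicate 3 against an average of 65.6 in replicates 1 and 2. The likeness depends on the measure: 3 of the 6 rows were also among the nearest 6 by Pearson r, and 0 were when each library was centred on its group mean.

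**Figure D4:**
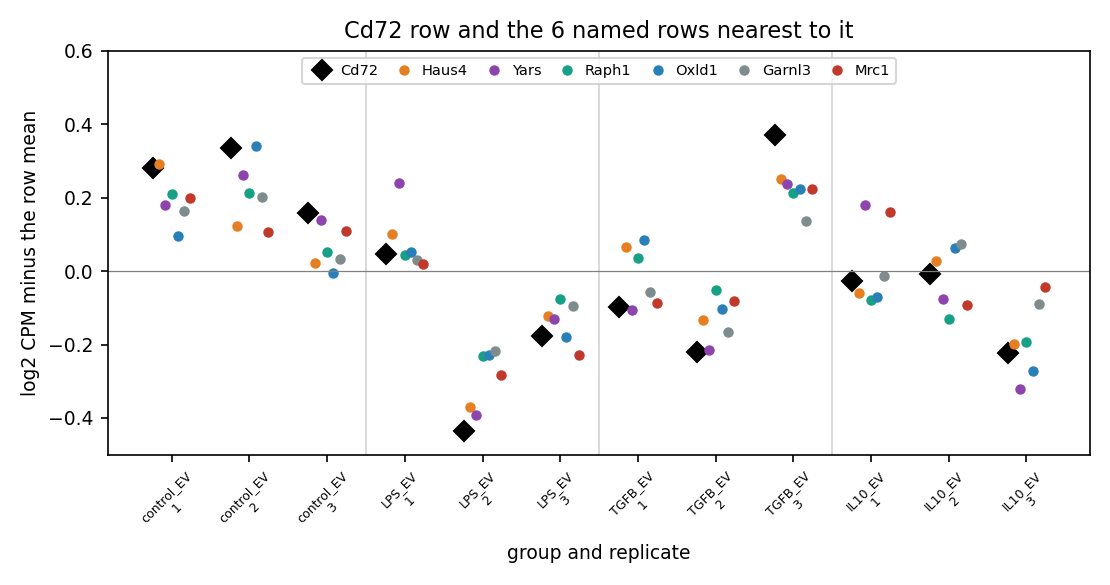
Log2 CPM minus the row mean in each of the 12 libraries for Cd72 (black diamonds) and the 6 named rows nearest to it (circles), by row label. All 7 rows lie above 0 in TGFB_EV replicate 3 and below 0 in LPS_EV replicates 2 and 3.

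Genes of CD72 signalling were described from a list of 29, by the gene that a row's displaced exons met most. Rows that could be tested met 14 of them in 27 rows, some of which hold only part of a gene, so that levels are those of the row. Of these 27 rows, 0 rose and 2 fell in LPS_EV by edgeR at an adjusted p under 0.05, beside 0.276% of all rows that fell; DESeq2 also called both, beside 3.71%. None was called in TGFB_EV or IL10_EV, where edgeR called 0.038% and 0% of all rows, so that a count of 0 is no result about these genes. The median log2 difference of the 27 rows was -0.00 in LPS_EV, -0.05 in TGFB_EV and -0.02 in IL10_EV, and that of all rows was 0.00 in each. Without TGFB_EV replicate 3 the median in TGFB_EV was -0.16, and without IL10_EV replicate 2 that in IL10_EV was -0.07, with 0 rows called. By row label, 17 rows of the list were tested, 0 were called, and 6 of the 29 labels met their own gene.

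The ligand Sema4d, given here although outside the naming rule, was met by the row labelled Shc3. That row had 97.4 ± 2.90 CPM in control_EV and 110.2 ± 5.41 in LPS_EV (SD, n = 3), a log2 difference of 0.18 that was not called (edgeR adjusted p = 0.261). Plxnb2, a plexin receptor of class 4 semaphorins, was met by the row labelled Ppp6r2, which also met Mapk11, Mapk12, Hdac10 and Selenoo. That row had log2 differences of 0.04, -0.03 and -0.01 in LPS_EV, TGFB_EV and IL10_EV.

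Both called rows met Fyn, a Src family kinase, on chromosome 10 after a displacement of -124 kb. The row labelled E130307A14Rik had 395, 390.2 and 386 CPM in control_EV and 353, 281 and 296 in LPS_EV. All 3 LPS_EV libraries were below all controls, as in 8.21% of all rows tested, and replicates 2 and 3 were the lowest. Its log2 difference was -0.33 (SE 0.06, edgeR adjusted p = 0.00919). The row labelled 2900078I11Rik fell from 163 ± 6.93 to 130.3 ± 13.5 CPM (SD, n = 3; log2 difference -0.32, SE 0.07, edgeR adjusted p = 0.0163).

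Another row that met Fyn, labelled Traf3ip2, had 129 ± 2.42 CPM in control_EV and 108 ± 13.98 in LPS_EV (SD, n = 3; log2 difference -0.26, edgeR adjusted p = 0.113), not called by edgeR with all 6 libraries. It was called by DESeq2 (adjusted p = 0.0449), and by edgeR without a filter (0.0249), with the replicate block (0.0224) and without LPS_EV replicate 1 (0.0124). These rows meet parts of the same gene and are not independent of each other. The calls of the first pair of rows were lost without LPS_EV replicate 2 (edgeR adjusted p = 0.127 and 0.149) and without LPS_EV replicate 3 (0.131 and 0.235), and in the fit of all 12 libraries (0.567 and 0.6898). That of 2900078I11Rik was also lost without control_EV replicate 3 (0.0986). In TGFB_EV the row labelled E130307A14Rik lay at 391 ± 19.4 CPM and in IL10_EV at 333 ± 58.1 (SD, n = 3). Its values in IL10_EV were 384, 269 and 344 CPM, lowest in replicate 2, the library that stood apart.

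**Figure D5:**
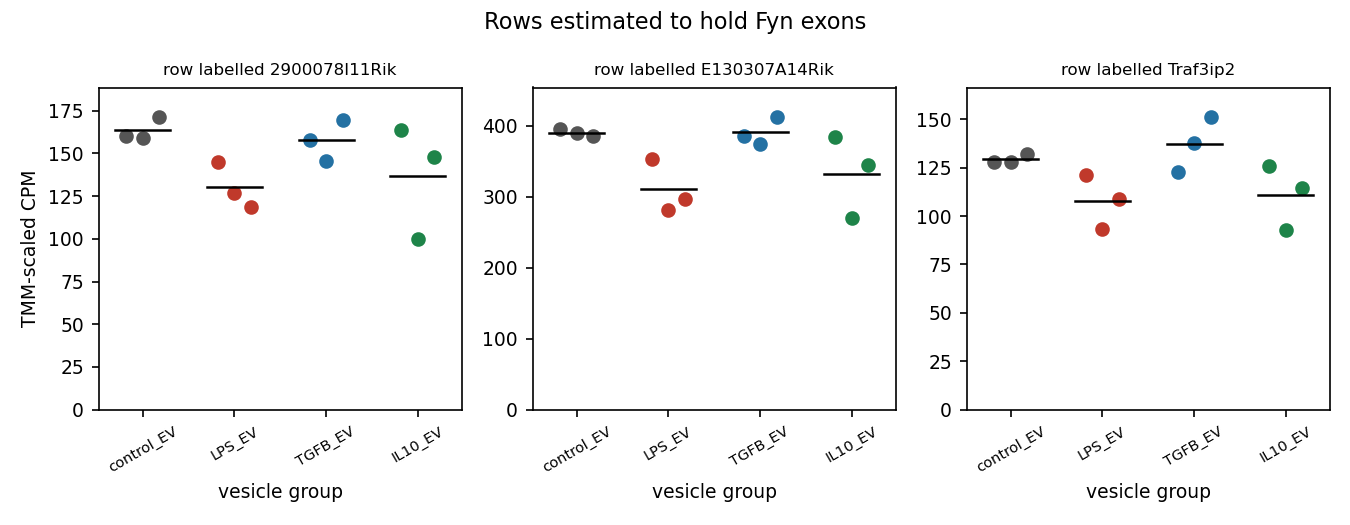
TMM-scaled CPM in each library (points; lines are group means) of the 3 tested rows estimated to hold Fyn exons, by row label, in the 4 vesicle groups. In the row labelled E130307A14Rik the 3 LPS_EV libraries lie between 281 and 353 CPM and the controls between 386 and 395.

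Other kinases, phosphatases and factors of the list were not called with all libraries. Lyn, a Src family kinase that phosphorylates inhibitory motifs and whose row met its own gene, had 511 ± 24.5 CPM in control_EV and 509 ± 12.1 in LPS_EV (SD, n = 3). It had 467 ± 46.5 CPM in TGFB_EV and 545 ± 63.1 in IL10_EV. The row labelled Atg16l1, with a mean of 305 CPM, met Inpp5d, the inositol phosphatase SHIP. Its log2 differences were 0.03, -0.09 and 0.11 in LPS_EV, TGFB_EV and IL10_EV. The row labelled Inpp5d, which met Inpp5d and Neu2, had a mean of only 1.86 CPM and differences of 0.54, 0.17 and 0.24. Without TGFB_EV replicate 3 the rows labelled Lyn and Atg16l1, 2 of 27, were called lower in TGFB_EV, beside 2.9% of all rows. Their log2 differences were -0.22 and -0.26 (edgeR adjusted p = 0.0276 and 0.0396). That library was left out after the data were seen, so these calls are a description. Ptpn6 was met only by rows with means of 0.598 and 0.128 CPM, too low to test, and the latter also met Phb2. Genes met are estimates, so these values are levels of the rows and not a measure of Ptpn6. The row labelled Slc39a8 met Nfkb1, an NF-kB subunit, and Manba, with log2 differences of -0.09, -0.00 and -0.06.

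Of the factors, Spi1, which encodes PU.1, was met by the row labelled Arfgap2. It had 179 ± 12.04 CPM in control_EV and 165 ± 5.25 in LPS_EV (SD, n = 3). TGFB_EV had 163 ± 3.49 CPM and IL10_EV 166 ± 9.93. The log2 differences were -0.12, -0.14 and -0.11, and edgeR gave adjusted p of 0.483, 0.789 and 0.9996. The row labelled Pacsin3 also met Spi1, with a mean of 10.6 CPM and log2 differences of -0.18, -0.33 and -0.02, not called. Pax5, the B-cell factor, lies in the same stretch of chromosome 4 as Cd72 and kept its label, and its row had 2 counts in all 12 libraries.

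Other inhibitory receptors of myeloid and B cells were described from a list of 27 genes. In LPS_EV and TGFB_EV 12 rows that met 11 of them were tested, and in IL10_EV 13 rows that met 12 of them. By edgeR 0 were called in any comparison, against 0.817%, 0.038% and 0% of all rows in LPS_EV, TGFB_EV and IL10_EV, so that a count of 0 is no result about these receptors. The median log2 difference was -0.03 in LPS_EV, -0.22 in TGFB_EV and -0.05 in IL10_EV, where all rows had medians of 0.00. Without IL10_EV replicate 2 the median in IL10_EV was -0.17, and 0 of 13 rows were called. In TGFB_EV 10 of the 12 rows had a value below 0, as did 50.2% of all rows tested.

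Among the receptors of highest level, the row labelled Gprc6a met Lilrb4a, with 1452 ± 39.3 CPM in control_EV and 1546 ± 44.8 in LPS_EV (SD, n = 3; log2 difference 0.09, edgeR adjusted p = 0.448). Rows labelled Cd300ld2 and Cd300c2 met Cd300a, with log2 differences in LPS_EV of -0.05 and -0.04. Pilra kept its label and had log2 differences of 0.12, -0.08 and 0.22 in LPS_EV, TGFB_EV and IL10_EV. Pirb and Lair1, a receptor of collagens, also kept theirs. Pirb had 197 ± 31.1 CPM in control_EV and 158 ± 46.9 in TGFB_EV (SD, n = 3), and Lair1 had 148 ± 10.8 and 119 ± 27.8, with log2 differences of -0.32 for each (edgeR adjusted p = 0.789).

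As for Cd72, the size of these differences and the calls turned on TGFB_EV replicate 3. With and without that library 10 of the 12 rows lay below 0, beside 50.2% and 50.4% of all rows. Without it the median of the 12 rows was -0.43 and 3 of them were called lower, beside 2.9% of all rows. They were Lair1 (log2 difference -0.53, edgeR adjusted p = 0.000241), Pirb (-0.55, adjusted p = 0.0138) and the row labelled Klk4, which met Cd33 (-0.38, adjusted p = 0.0355). Replicate 3 was left out after the data were seen, so these calls and their adjusted p are a description and no independent support. Over all rows tested, leaving out this library raised the calls in TGFB_EV from 4 to 419.

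Markers were examined to see whether Cd72 reads could go with B cells. By gene met, 4 of 8 B-cell markers had a row. Of these only Cd22, which microglia can also express, reached 1 CPM, and the rows that met Ms4a1, Pax5 and Blk had means of 0.0226, 0.0122 and 0.0152 CPM. Their summed level lay at 6.10 to 9.49 CPM in control_EV, 6.13 to 9.75 in LPS_EV, 5.21 to 9.68 in TGFB_EV and 6.99 to 9.12 in IL10_EV, so that the groups overlapped. Of 14 markers of microglia and macrophages 8 had a row by gene met, and all 8, Aif1, Itgam, Csf1r, Ptprc, Spi1, Lyz2, Ctss and Mrc1, reached 1 CPM. Their summed level was 6627 to 7051 CPM in control_EV, 6898 to 7579 in LPS_EV, 5708 to 6964 in TGFB_EV and 6811 to 8527 in IL10_EV. T-cell markers (3 of 6 with a row) summed to at most 1.03 CPM and astrocyte markers (1 of 4) to at most 0.595, and 0 of 4 neuronal markers had a row. Fewer cells that express a gene and less of its RNA per cell cannot be told apart in bulk samples.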

How the data were processed

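Per the labels' protocols, column-purified RNA went into SMART-Seq v4 and Nextera XT libraries (18 cycles of PCR) for 150 nt paired-end sequencing. The deposited values are raw counts by Ensembl gene ID, in 4 tables, 2 of them identical; 3 were used. DESeq2 was used per the submitters' processing notes; the aligner and the genome build were not given in the sources used here. Of 57010 rows 52029 matched a symbol. In these depths 3 counts correspond to 0.220 to 0.286 CPM, which covers counting error only.

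Groups came from sample titles. Each comparison used its 6 libraries in edgeR 4.0.16 (R 4.3.3; quasi-likelihood F test after TMM scaling, rows kept by filterByExpr at min.count 10, Benjamini-Hochberg threshold 0.05), and levels are CPM with TMM over 12 libraries. The SE of an edgeR log2 difference is its absolute value divided by the square root of F. The tests were checked on simulated counts. Log2 CPM for likeness used a prior count of 2. Alternatives were DESeq2 1.42.0, its size factors, filters, a fit of 12 libraries, a replicate block and leaving out each library.

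Row identity was estimated from GENCODE M21 exons, moved by a displacement constant over stretches of rows, in steps of 100 bp within 1000 kb. Scores rose where high rows fell on exons of 727 widely expressed genes, and dropped where rows with counts met no protein-coding exon or rows with almost none met such genes, and each change of displacement cost 15. The fit used no group labels, and 62 of 73 stretches were supported, meaning a score at least 5 above any displacement over 10 kb away. Genes met are estimates.

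Named rows were Cd72, its 5 neighbours with counts on either side, the 6 nearest named rows of at least 5 CPM, and called members and up to 6 members of highest level of each list. Cd72, the lists and the tests were chosen with earlier results of these data known.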

Additional observations from a re-analysis of the deposited data

How the results depend on the processing

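The Cd72 difference kept its sign in 12 of 12 alternatives for each of LPS_EV, TGFB_EV and IL10_EV. In LPS_EV and IL10_EV every value lay below every control, so leaving out a library could not have reversed the sign. For these groups the kept sign is therefore no evidence of stability. With each library left out the difference ran from -0.56 to -0.32, -0.42 to -0.10 and -0.39 to -0.28. Over the other settings it ran from -0.44 to -0.42, -0.24 to -0.22 and -0.35 to -0.34. The SE was less stable: in the fit of all 12 libraries it was 0.13 in LPS_EV and in IL10_EV, against 0.08 in the main fit of each. For TGFB_EV the fit put Cd72 past the threshold only without TGFB_EV replicate 3, on the controls that entered its choice. Group means of Cd72 by library totals or DESeq2 size factors moved by less than the SD.

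The background counts were less stable. For LPS_EV (86 rows) edgeR called 165 without a filter, 0 with all 12 libraries in a fit (753 rows at an unadjusted p under 0.05; DESeq2 on 6 libraries called 129) and 18 to 127 with each library left out (18 without LPS_EV replicate 3, 27 without LPS_EV replicate 2, 53 without control_EV replicate 1). For TGFB_EV (4 rows) DESeq2 called 17, edgeR without a filter 111 and with all 12 libraries 0 (615 at an unadjusted p under 0.05). With each library left out it called 0 to 419: 0 without control_EV replicate 1 or TGFB_EV replicate 1, 1 without control_EV replicate 3, 2 without control_EV replicate 2 or TGFB_EV replicate 2 and 419 without TGFB_EV replicate 3. For IL10_EV (0 rows) DESeq2 called 1, edgeR without a filter 22, and 0 to 2 with each library left out: 1 without IL10_EV replicate 1 and 2 without IL10_EV replicate 2. The cause was not tested.

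Replicate numbers were not taken as pairing the libraries: deviations of same-numbered libraries from their group means correlated between -0.236 and 0.246 across rows. Each LPS_EV library correlated best with the control of its number (0.0342 to 0.0908), as did 2 of 3 IL10_EV libraries (0.207 and 0.246) and 0 of 3 TGFB_EV libraries, a hint from the data and not from the design. With a replicate block Cd72 had -0.44, -0.24 and -0.34 in LPS_EV, TGFB_EV and IL10_EV, and 209, 3 and 3 rows were called.

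Of the 6 rows nearest to Cd72, 3 were shared with the ranking by Pearson r and 0 with that by deviations from group means. The signalling list had 0 called rows by label and 2 by gene met in LPS_EV. Without TGFB_EV replicate 3, chosen after the data were seen, 2 of 27 signalling rows and 3 of 12 receptor rows were called lower in TGFB_EV. In that fit 2.9% of all rows were called lower. Without IL10_EV replicate 2, likewise chosen, 0 rows of either list were called in IL10_EV, beside 2 of 10813 rows in all. Mrc1, called lower in LPS_EV with all 6 libraries (-0.30, edgeR adjusted p = 0.0137), was not called in the fit of 12 libraries or when LPS_EV replicate 2 or 3 or control_EV replicate 1 was left out (adjusted p 0.0865 to 0.567). Row identities finer than 100 bp and the share of reads between Cd72 and Tesk1 are beyond what counts per row can show.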

Other observations

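In TGFB_EV, calls of some rows that met microglia and macrophage markers turned on whether replicate 3 was kept. The 14 tested rows met 8 genes, 4 of the rows Ptprc alone, so they are not independent. In TGFB_EV 13 had a log2 difference below 0, as did 50.2% of all rows, with a median of -0.10, and edgeR called 0 of them, against 0.038% of all rows. Without TGFB_EV replicate 3 the median was -0.18, 13 again lay below 0 and 4 rows were called lower, beside 2.9% of all rows. That library was left out after the data were seen, so these calls are a description. The called rows met Csf1r, the receptor that sustains microglia (with Pdgfrb), Mrc1, Itgam, an integrin of phagocytes, and Lyz2, a lysozyme. Another row that met Itgam was not called. The Lyz2 row was lower with replicate 3 kept too, at 2085 ± 114 CPM in TGFB_EV against 2417 ± 63.4 in control_EV (SD, n = 3; edgeR adjusted p = 0.334). In LPS_EV 1 of the 14, Mrc1, was called lower, beside 0.276% of all rows, and 5 had a value below 0. Without IL10_EV replicate 2 the median in IL10_EV moved from 0.04 to -0.06, with 0 rows called. Their part in the level of Cd72 was not tested.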
